A study of Mus musculus with 12 samples.

Results

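The interferon effector genes are 50 mouse genes of the ISG, IFIT, IFITM, OAS, MX, GBP, IRG and PARP groups. They were taken as a fixed list of symbols, chosen with earlier results of these data known. The table holds 49 of them among 20432 genes. The RNA of Sp100 was not analysed here. Levels are in CPM, the read count per 1e+06 reads after the authors' scaling, while filters on CPM used the reads without that scaling. At or above 1 CPM in at least 6 libraries were 26 members, which were tested, and the other 23 are described by their reads. The libraries come from 6 mouse pancreatic ductal adenocarcinoma cell lines, numbered 52205, 52419, 52424, 53105, 53369 and 53371. Each was sequenced once as the parental line, labelled wild type, and once as its isogenic derivative, labelled JAK1 knockout. The derivatives had been infected with a pBabe-Cre-puro retrovirus and selected in puromycin at 2, 4 and 7 µg/ml. Both cultures of a line were grown in the same serum-containing medium, and the labels name no interferon treatment. No empty-vector culture entered the comparison, and infection, selection, time in culture and the loss of JAK1 cannot be told apart. The labels do not say whether the derivatives are clones, or how the lines were first made.

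Interferons are secreted proteins that cells release on sensing a virus. Types I and III signal through JAK1 with TYK2, and type II through JAK1 with JAK2. Phosphorylated STAT proteins, with IRF9 in the type I and III pathways, then bind interferon-stimulated response elements or gamma-activated sites and switch on effector genes. Their products degrade or sequester viral RNA, block entry and budding, modify proteins with ISG15 or ADP-ribose, or attack the vacuoles of intracellular pathogens. Many are also transcribed at a low level in cells that were given no interferon.

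Promoter sequence was available for 40 of the 50 members, Sp100 among them (RefSeq, GRCm38.p6, 250 bases before to 50 after the start). The core of the interferon-stimulated response element, GAAA and again GAAA with any 2 bases between them, read on both strands, was in 21 of these 40 (52.5%), against 3.99% of 27025 genes with such a window. The gamma-activated site TTCNNNGAA was in 12 members (30.0%) against 9.55% of all genes, and 8 members (20.0%) held both motifs against 0.614%. The element stood in 9 of 23 members past the filter and in 12 of 16 below it, with Sp100 in neither set. The stretches below are shown because they carry the element in members from different roles whose RNA levels are given afterwards. They are read on the gene's strand, and capitals mark the matched bases, where overlapping matches run together.
Isg15: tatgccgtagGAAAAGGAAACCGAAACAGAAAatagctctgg
Ifit1: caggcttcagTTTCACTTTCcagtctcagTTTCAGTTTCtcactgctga
Oas3: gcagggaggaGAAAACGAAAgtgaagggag
Rsad2: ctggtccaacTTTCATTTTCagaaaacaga
Bst2: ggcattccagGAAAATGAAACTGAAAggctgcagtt
Gbp2: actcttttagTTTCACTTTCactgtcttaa
Irgm2: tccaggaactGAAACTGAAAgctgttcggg
Tgtp1: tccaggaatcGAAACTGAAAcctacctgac
Irgm1: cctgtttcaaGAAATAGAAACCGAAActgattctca
The Isg15 stretch lies at chr4:156200865-156200906 on the minus strand, with its first match 78 bases upstream of the start. That of Ifit1 is at chr19:34640775-34640823 on the plus strand, beginning 104 bases upstream. The others are at chr5:120777715-120777744 (Oas3, minus), chr12:26456553-26456582 (Rsad2, minus), chr8:71537577-71537612 (Bst2, minus), chr3:142620594-142620623 (Gbp2, plus), chr11:58214903-58214932 (Irgm2, plus), chr11:48992304-48992333 (Tgtp1, minus) and chr11:48871425-48871460 (Irgm1, minus). A match is a description of the letters and not a bound site.

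The 12 libraries held 11.5 to 18.0 (x 1e+06) reads in genes, and 1 read was worth 0.0569 to 0.0896 CPM. A library with 0 reads of a gene allows up to 3 reads, or 0.171 to 0.269 CPM, as counting error alone. Jak1 itself was at 207, 125, 183, 172, 165 and 170 CPM in parental and at 192, 104, 234, 155, 145 and 179 in Cre libraries (lines in the order given above), a log2 change of -0.04 (95% confidence interval -0.24 to 0.15). The gene's total count therefore did not separate the libraries labelled knockout from the parental ones. Which exon Cre removes is not stated in the sources used here, and a transcript lacking an exon is still counted. Directions below are for the libraries labelled JAK1 knockout, called Cre libraries. Epithelial marker levels differed between lines. Cdh1, the adherens junction protein E-cadherin, stood at 0.372 CPM in parental 52419 and 17.5 in parental 53369, against 272 to 805 in the other parental lines. Krt8, a keratin of simple epithelia, was at 0.818 CPM in parental 52419 and at 776 or more in every other parental library. Krt18 was detected in all libraries, at 188 CPM or more. Of 8 leukocyte markers only Cd68 passed the filter, and Ptprc, which defines leukocytes, was at most 1.02 CPM in any library.

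In parental cells the interferon effector genes were highest in lines 52419 and 53369. The mean of log2(CPM + 0.5) over the 49 members was 3.60 in parental 52419 and 3.05 in parental 53369, and lay between 1.62 and 1.93 in the other 4 parental lines. These 2 libraries were the 2 highest for 10 of the 26 members past the filter (38.5%) and for 15 of the 23 below it (65.2%), against 14.7% of all genes tested. At least 10 reads were found for 45 of the 49 members in parental 52419, for 41 in parental 53369 and for 27 to 29 in the others. Both lines also had the lowest Cdh1. The part of epithelial state in the level of these genes was not tested.

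The mean over the members spread less between lines after Cre. The same mean over 49 members was 2.06 in the Cre library of 53369 and 1.39 to 1.59 in the other 5, with 52419 now the lowest. Over the lines it was 2.29 ± 0.83 in parental and 1.60 ± 0.24 in Cre libraries (SD, n = 6 lines each). For single members past the filter the SD of the log2 values was smaller after Cre in 18 of 26 (69.2%, against 51.8% of all genes). It was larger for the rest, among them Lgals3bp (1.41 before and 2.54 after), Samd9l (0.95 and 1.82) and Dtx3l (0.37 and 0.88). The mean change, Cre minus parental, was -2.21 in 52419 and -1.0 in 53369. It was -0.34 in 52424, -0.29 in 52205, -0.19 in 53371 and -0.12 in 53105. All 6 values were below 0. Members with few reads in a parental library had little room to fall on this scale, which limits the comparison of these means between lines. Some fibroblast markers were also lower after Cre in 52419 and 53369. Of 5 fibroblast markers listed 4 were in the table and 3 passed the filter, and their sum was 9.14 to 1236 CPM in parental and 7.69 to 598 in Cre libraries. Pdgfra, a growth factor receptor of fibroblasts, had 160 CPM before and 83.5 after Cre in 53369, 67.0 and 39.1 in 52419, and less after Cre in all 6 lines. Its log2 change was -0.71 (adjusted p = 0.0786 by limma, 0.0391 by edgeR and 1.7e-06 by DESeq2). Col3a1, a fibrillar collagen, had 843 and 413 CPM in 53369 and 33.9 and 15.9 in 52419, while Col1a1 was lower in 53369 and higher in 52419. Of 5 mesenchymal markers Fn1, or fibronectin, was lower in 6 of 6 lines (-0.57, adjusted p = 0.177 by limma and 0.00109 by DESeq2). The rest of that list did not follow Fn1. Vim and Cdh2 had estimates of 0.15 and 0.19, each lower in 2 lines, and Zeb1 and Twist1 of -0.09 each. Vim changed by 0.15 in 52419 and 0.24 in 53369, and Cdh2 by -0.016 and 0.68. The part of these markers in the change of the interferon effector genes was not tested.

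**Figure D1:**
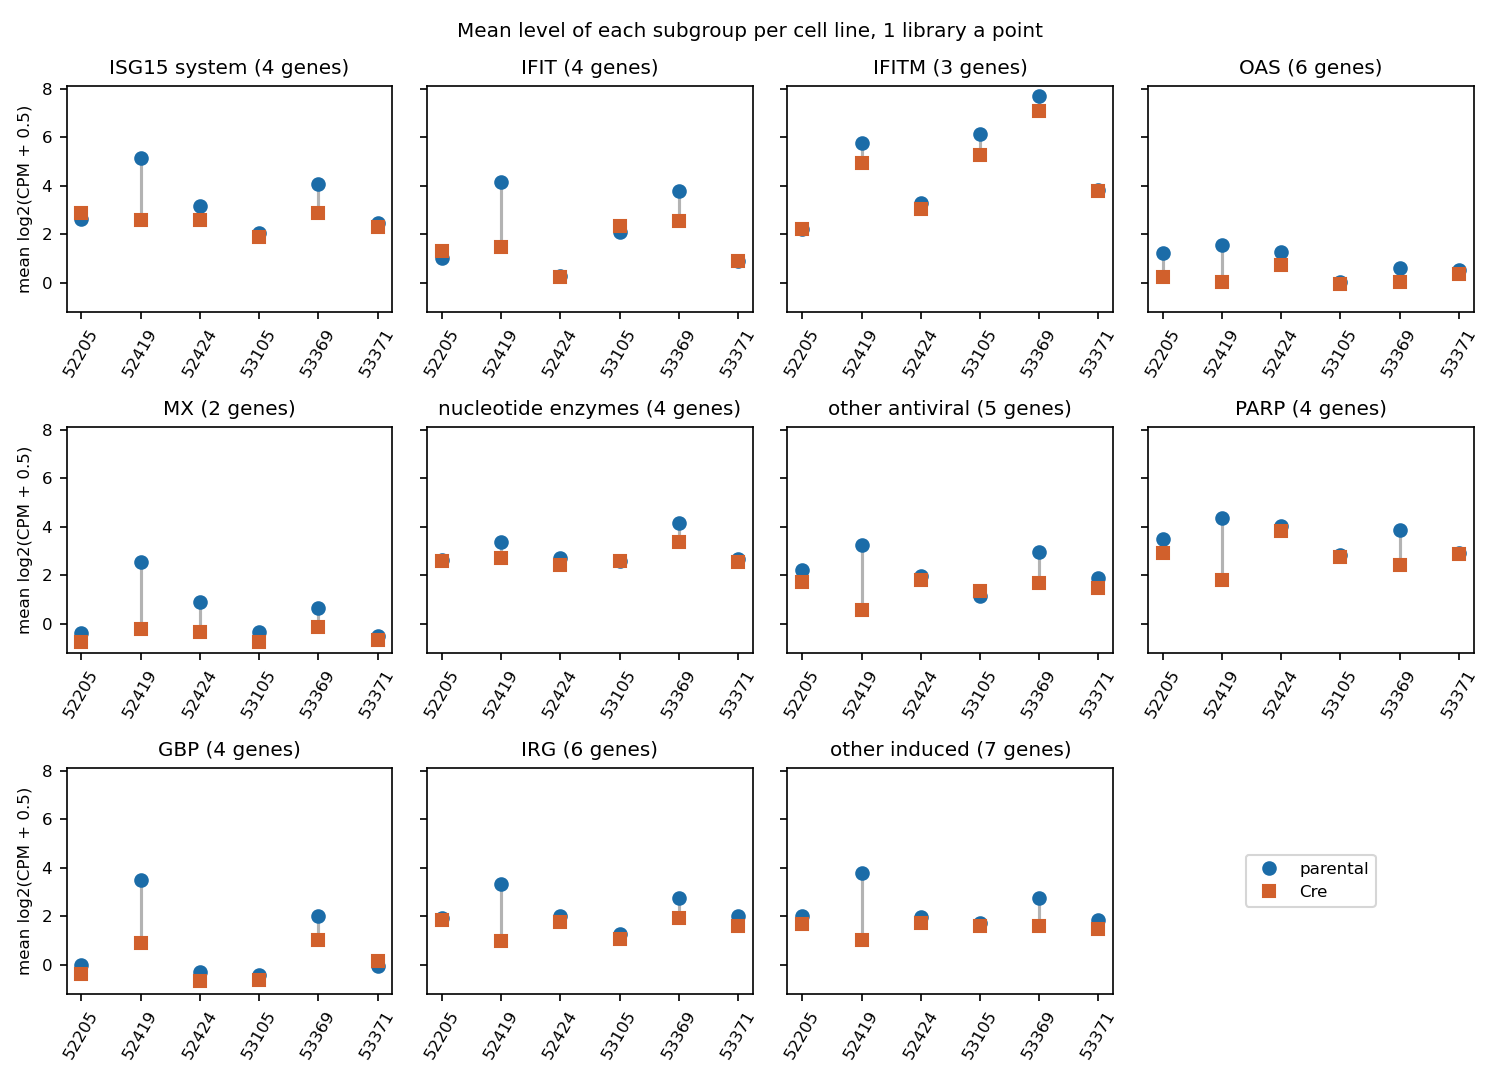
Mean log2(CPM + 0.5) of the members of each subgroup (y axis) in the parental (circles) and Cre (squares) library of each of 6 cell lines (x axis), 1 library a point, with a grey line joining the pair. The parental points of 52419 and 53369 stand above their Cre points in all 11 subgroups, and the largest change is -2.76 (MX in 52419).

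No member passed the test across lines. Of the 26 members tested 22 had an estimate below 0, where 50.1% of all 12734 genes did, and the median log2 change was -0.63 against -0.00024 over all genes. By limma with Benjamini-Hochberg adjustment 0 members were called lower or higher, and 0.0236% of all genes were called lower. At an unadjusted p under 0.05, 11 members were lower and 0 higher, against 8.18% and 6.96% of all genes. Those 11 were Ifit1, Ifitm2, Ifitm3, Bst2, Xaf1, Parp9, Parp14, Dtx3l, Ifi35, Ifi27 and Irgm2. Because the list was chosen with earlier results of these data known, its counts beside the shares of all genes are descriptions only. On the recovered reads edgeR called 0 of the 26, against 0.0393% of all genes. DESeq2 called 5 lower (Ifitm2, Ifitm3, Ifit1, Ifi27 and Xaf1), against 1.63% of all genes. Ifit1, Ifitm2, Ifitm3, Xaf1 and Irgm2 were lower in all 6 lines (5 of 26, against 4.56% of all genes). The median was -0.29 without line 52419, and 6 members were lower at an unadjusted p under 0.05 without line 53369. Without both of these lines the median was -0.18, with 4 members at that threshold and 19 of 26 below 0 in the mean of the remaining lines, against 50.9% of all genes below 0. The share of all genes at that threshold was not taken for the fits with lines left out.

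In every subgroup other than OAS, MX and IFITM the same 2 lines had the lowest mean changes. The mean log2 change in 52419 and 53369 was -2.58 and -1.23 for the ISG15 system, -2.71 and -1.22 for IFIT, -2.62 and -0.99 for GBP, -2.34 and -0.82 for IRG and -2.58 and -1.42 for PARP genes. In the other 4 lines it lay between -0.57 and 0.23 for the ISG15 system, -0.03 and 0.30 for IFIT, -0.38 and 0.20 for GBP, -0.43 and -0.08 for IRG and -0.58 and -0.03 for PARP genes. OAS genes were at -1.51 in 52419 and -1.01 in 52205, below -0.60 in 53369. MX genes were at -2.76 in 52419 and -1.25 in 52424, below -0.77 in 53369. IFITM genes were at -0.88 in 53105, -0.82 in 52419 and -0.62 in 53369. A subgroup with few reads before Cre had little room to fall on this log2 scale. The parental mean of GBP genes was 3.49 in 52419 and 1.98 in 53369, but -0.44 to -0.0088 in the other 4 lines. The small GBP changes in those 4 lines therefore cannot show a weaker response. The parental mean of PARP genes was 4.37 in 52419, 3.85 in 53369 and 2.84 to 4.04 elsewhere, which left that mean more room to fall. Parp14 alone was low in some lines, at 1.42 CPM in parental 53105 and 3.62 in parental 53371. The part of room to fall in the PARP changes was not tested. Fewer cells that express a gene and less RNA per cell cannot be told apart in these bulk libraries.

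By the size of the difference 52419 and 53369 stood apart from the rest. Among the 26 members 18 were past 2-fold lower in 52419, where 2.43% of all genes were, and 11 in 53369, where 0.864% were. The 11 were also past 2-fold lower in 52419, and 55 of all genes tested (0.432%) were so in both. In the remaining lines 3 members were past 2-fold lower in 52424 (3.81% of all genes), 2 in 52205 (4.09%), 1 in 53105 (0.903%) and 1 in 53371 (2.98%). With 1 library per line and condition these values within a line have no replicate check. A member with very few reads in the parental library of a line could not be past 2-fold lower there on this log2 scale. Past 2-fold higher were 2 members in 53371 (Ifit2 and Gbp2), where 4.36% of all genes were, 1 in 52205 (Ifitm1, 0.573%) and 1 in 52424 (Ifit2, 2.45%). None was in 52419 (0.487%), 53105 (1.55%) or 53369 (0.699%).

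**Figure D2:**
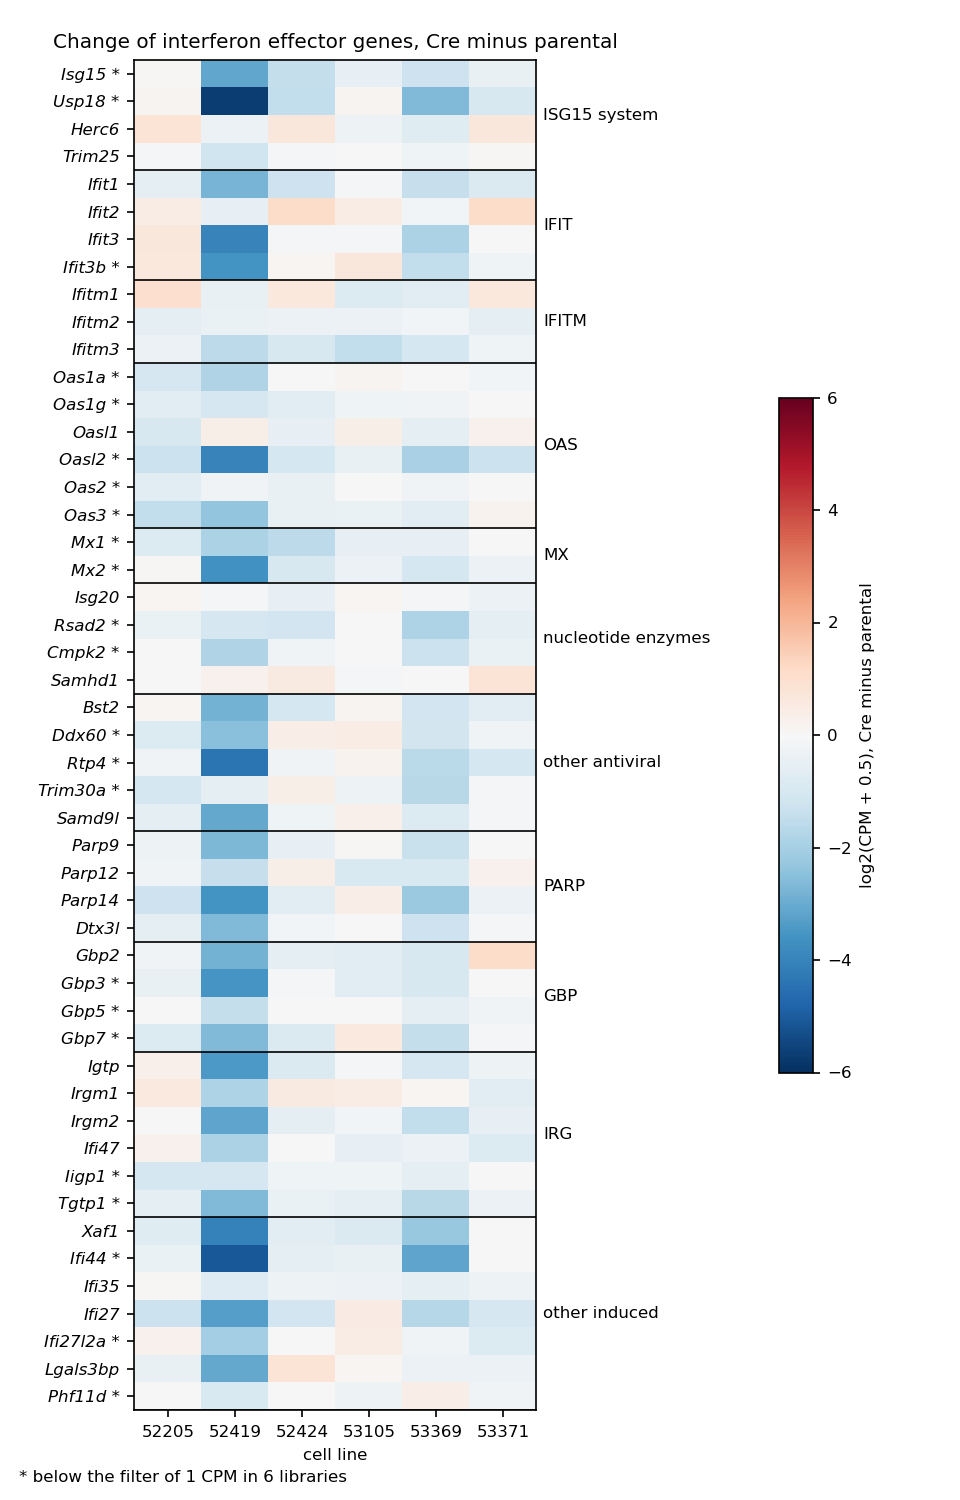
Change of each of the 49 members (rows, grouped by role) in each cell line (columns), as log2(CPM + 0.5) in the Cre library minus that in the parental library; blue is lower after Cre, red is higher, and an asterisk marks genes below the filter. The columns of 52419 and 53369 are blue for 47 and 45 of the 49 members, against 26 to 36 in the other lines. Of all genes tested, 47.3% (52419) to 52.9% (53371) were lower in a line.

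The ISG15 system attaches a ubiquitin-like protein to other proteins. Isg15, the modifier itself, had 24.4 CPM before and 2.38 after Cre in 52419 and 15.9 and 6.36 in 53369, and was at most 1.64 CPM in any library of the other lines. Usp18, which removes ISG15 and also restrains the type I receptor, had 558 reads before and 4 after Cre in 52419 and 41 and 1 in 53369. Elsewhere Usp18 had 1 to 31 reads in a library. Both genes were thus counted mainly in the same 2 parental libraries. Herc6, the ligase that joins ISG15 to its targets in mice, behaved otherwise. Its parental libraries ran from 3.62 over a median of 4.67 to 11.7 CPM, and its Cre libraries from 2.85 over 7.08 to 9.22, a log2 change of 0.13 (95% confidence interval -0.38 to 0.64). It was lower in 3 lines and higher in 3. Trim25, a ubiquitin ligase that acts on the RNA sensor RIG-I, had the most reads of this subgroup, at 125, 145 and 177 CPM before Cre and 55.1, 135 and 170 after it (lowest, median and highest library, as in later triples). Its log2 change was -0.25 (SE 0.15, limma adjusted p = 0.459), and the lowest value was that of 52419, where the parental library had 125 CPM and the Cre library 55.1.

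IFIT proteins bind viral RNA and block its translation, and their genes lie side by side on chromosome 19. Ifit1 (34640889 to 34650009) measured 0.526, 1.54 and 28.1 CPM before Cre and 0, 1.22 and 10.5 after it. Each Cre library was below its parental one, at 2.61 against 20.9 CPM in 52419 and 10.5 against 28.1 in 53369, while the groups overlapped widely. The log2 change was -1.15 (SE 0.31, limma unadjusted p = 0.00428, adjusted p = 0.205). The exact sign-flip permutation p was 0.031, the smallest that 6 pairs allow, which any gene lower in all 6 lines gets. Ifit3 had 18.5 CPM before Cre and 0.692 after it in 52419, with 8.95 and 2.07 in 53369. In 52205 it was higher after Cre, at 0.976 and 1.88 CPM. Its near-identical neighbour Ifit3b had 123 and 4 reads in 52419, and reads of the 2 genes may have been split or dropped in the counting, so both values are uncertain. Ifit2 differed from its neighbours. It measured 2.84, 18.3 and 36.7 CPM before Cre and 6.62, 18.3 and 49.4 after it, higher after Cre in 4 lines and lower only in 52419 (26.2 to 18.5) and 53369 (29.8 to 26.6). The log2 change of Ifit2 was 0.41 (95% confidence interval -0.066 to 0.88, limma adjusted p = 0.386).

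IFITM proteins sit in cell and endosome membranes and restrict viral entry. All 3 lie on chromosome 7, and they included the 2 members with the smallest p. Ifitm2 (140954837 to 140959686) was well expressed in every line. Its parental libraries ran from 94.7 over 170 to 188 CPM and its Cre libraries from 63.2 over 129 to 157. It was lower in 6 of 6 lines, by 0.15 (53369) to 0.61 (53371) on the log2 scale in size. Of all members it was the one whose difference varied least between lines among those past an unadjusted p of 0.05. The log2 change was -0.41 (SE 0.078, limma unadjusted p = 0.000412, adjusted p = 0.14). Ifitm3 (141009590 to 141010744) ranged over lines from 0.375 CPM in parental 52205 to 431 in parental 53369. The pairs were 316 and 106 CPM in 52419, 431 and 208 in 53369, 90.6 and 32.0 in 53105, 12.8 and 10.5 in 53371, 1.89 and 0.727 in 52424, and 0.375 and 0.179 in 52205. Each Cre library was below its own parental library, while the lines differed far more than the pairs. The log2 change was -0.95 (SE 0.18, limma adjusted p = 0.14), and library weights gave -1.09 with adjusted p = 0.0324. Ifitm1 was at 116 CPM in parental 53369 and 20.1 in parental 53105, but at 2.30 in parental 52419 and lower in the rest. Its difference split, lower in 53369 (to 73.6 CPM), 53105 (to 11.2) and 52419 and higher in the other 3 lines, with an estimate of 0.06 (95% confidence interval -0.53 to 0.65).

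OAS enzymes answer double-stranded RNA by making oligoadenylates that activate RNase L. Of the 6 genes on chromosome 5 only Oasl1, an OAS-like protein without that activity, passed the filter. Oasl1 had the reverse order of lines. It was lowest in parental 52419 (4.53 CPM) and 53369 (5.89) and highest in 52424 (50.9) and 52205 (33.0). After Cre it was at 35.8 CPM in 52424 and 16.9 in 52205, and at 5.92 in 52419, and it was lower in 3 lines and higher in 3 (log2 change -0.19, 95% confidence interval -0.61 to 0.24). Oasl2, its neighbour, had 625 reads in parental 52419 and 32 after Cre, 133 and 32 in 53369, and fewer reads after Cre in each of the other lines (21 and 4, 8 and 1, 10 and 5, 12 and 1 in 52205, 52424, 53105 and 53371). Oasl2 was lower in 6 of 6 lines, below the filter. Its exact sign-flip permutation p of 0.031 is that of any gene lower in all 6 lines and adds nothing to that count. Of all genes tested 4.56% were lower in all 6 lines. Oas3 was counted most in 52424, with 105 and 90 reads, and had 35 reads before and 7 after Cre in 52205 and 28 and 0 in 52419. Oas1a, Oas1g and Oas2 had 31, 24 and 8 reads over all libraries, and Oas2 had 0 in every Cre library. Oas1a and Oas1g are close copies, so their few reads are uncertain too.

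MX proteins are dynamin-like GTPases that trap viral particles. Mx1 had 68 reads in parental 52419 and 13 after Cre, and 31 and 8 in 52424. Mx2 had 77 and 0 reads in 52419 and 11 and 2 in 53369. In all other libraries each of them had 17 reads or fewer. Their mean change was -2.76 in 52419, -1.25 in 52424 and -0.77 in 53369.

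Among enzymes that act on nucleotides and nucleic acids the members past the filter differed little. Samhd1, which hydrolyses the building blocks of DNA, measured 62.9, 107 and 188 CPM before Cre and 95.4, 110 and 224 after it. Its log2 change was 0.26 (SE 0.13, limma adjusted p = 0.360), with the largest differences in 53371 (62.9 to 113 CPM) and 52424 (64.7 to 95.4). Isg20, an exonuclease, was between 20.5 and 44.3 CPM in all libraries, with an estimate of -0.12 (95% confidence interval -0.35 to 0.11). Rsad2, the antiviral protein viperin, and Cmpk2, a mitochondrial nucleotide kinase encoded next to it, were counted mainly in 53369. There Rsad2 had 60 reads before and 13 after Cre and Cmpk2 79 and 30.

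Other antiviral proteins act at different steps. Bst2, or tetherin, which holds budding virions at the cell surface, measured 12.7, 56.3 and 74.8 CPM before Cre and 9.91, 27.1 and 36.5 after it. It had 74.8 CPM before and 9.91 after Cre in 52419, 62.5 and 29.8 in 52424, 54.9 and 24.4 in 53369 and 57.7 and 36.5 in 53371, and it was slightly higher in 52205 and 53105. The log2 change was -0.91 (SE 0.34, limma adjusted p = 0.290). Samd9l, an inhibitor of translation and cell growth, was highest in parental 52424 (43.6 CPM) and 52205 (30.6). It had 8.10 CPM before and 0.538 after Cre in 52419, and was lower in 5 of 6 lines. Rtp4 had 310 and 8 reads and Ddx60, a helicase of RNA sensing, 84 and 9 in 52419. Trim30a had at most 20 reads in a library.

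ADP-ribosylating enzymes form a compact group on chromosome 16, where Parp14, Dtx3l and Parp9 lie within 35831892 to 35972621. PARP9 and the ubiquitin ligase DTX3L work as a complex, and PARP14 modifies single residues with ADP-ribose. The annotated spans of Dtx3l and Parp9 overlap at their starts, and without strand marking reads in the overlap cannot be assigned. Parp9 measured 11.6, 15.9 and 24.3 CPM before Cre and 3.15, 10.9 and 17.2 after it. Dtx3l measured 10.3, 17 and 18.9 CPM before Cre and 2.46, 10.5 and 17.1 after it. The groups overlapped for both genes, and the Cre library of 52419 stood lowest. Parp9 had 23.3 CPM before Cre and 3.15 after it in that line and 19.3 and 7.43 in 53369, with a log2 change of -0.79 (SE 0.33, limma adjusted p = 0.314). Parp14 had 14.0 CPM before and 0.692 after Cre in 52419, 11.6 and 2.07 in 53369 and 6.91 and 2.60 in 52205, and was higher only in 53105 (1.42 to 2.02). Its log2 change was -1.28 (SE 0.44, limma adjusted p = 0.268). Parp12, on chromosome 6, was at -0.47 (adjusted p = 0.376 by limma) and was higher after Cre in 52424 and 53371.

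**Figure D3:**
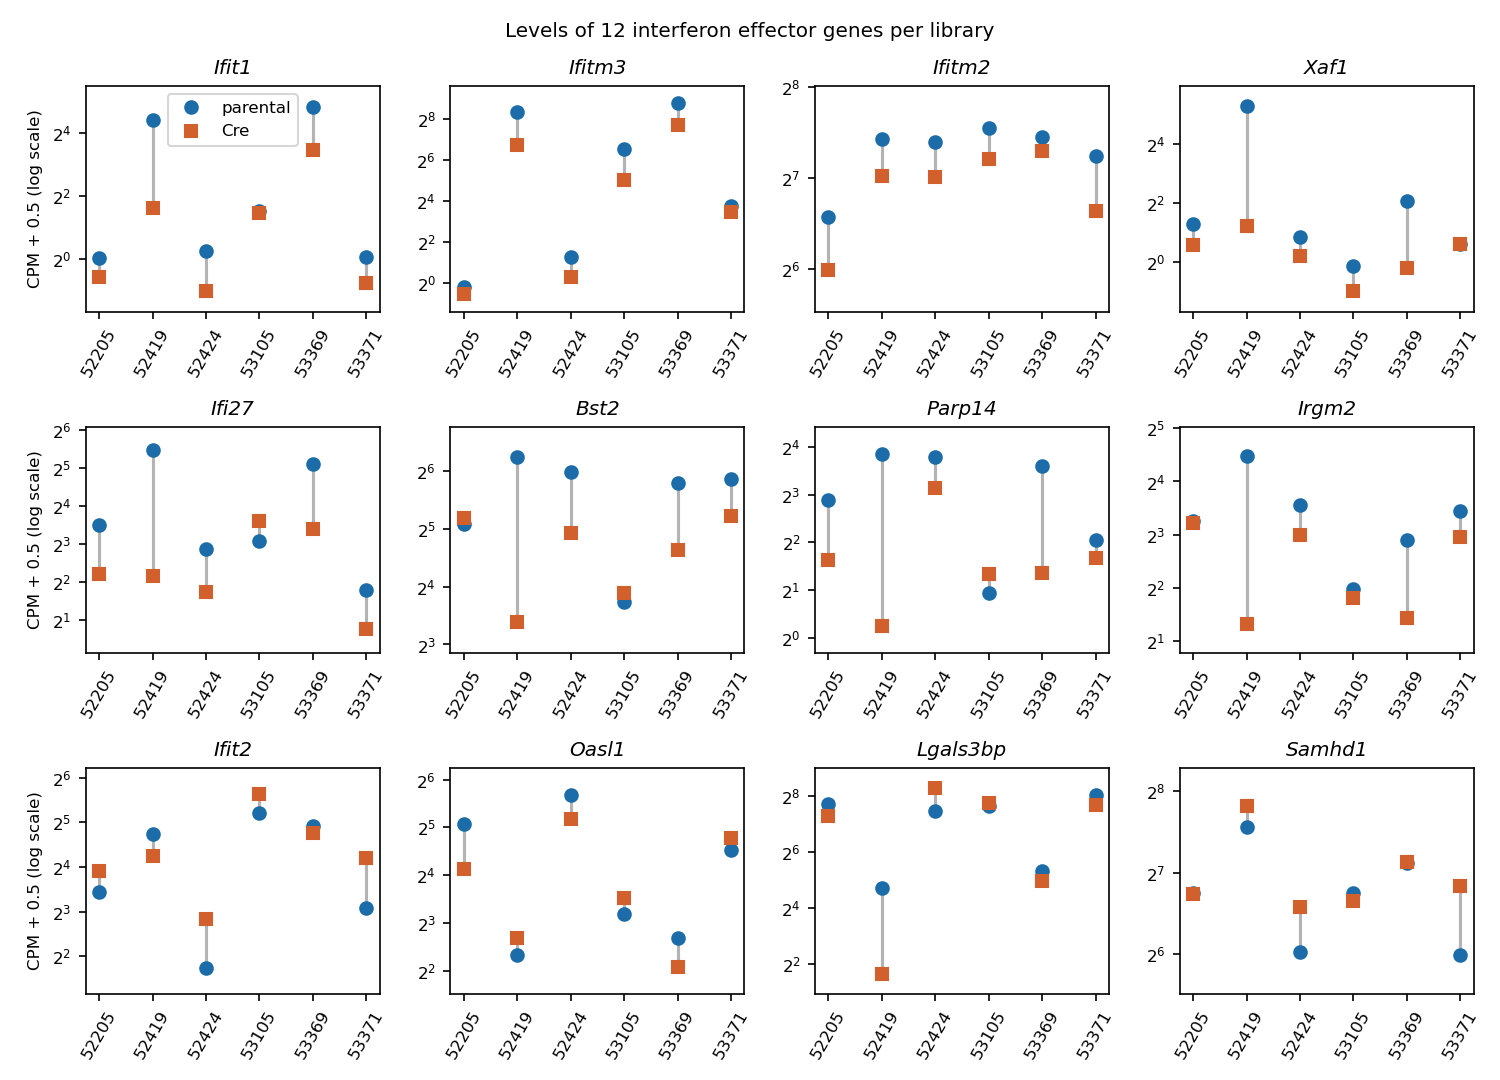
Levels of 12 members as CPM + 0.5 (y axis, log scale) in parental (circles) and Cre (squares) libraries of 6 cell lines (x axis), with a grey line joining the 2 libraries of a line. Ifitm3 and Ifitm2 are lower after Cre in all 6 lines, while Oasl1 and Lgals3bp are lowest in 52419 and 53369.

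Guanylate-binding proteins and immunity-related GTPases, both strongly induced by interferon gamma, disrupt pathogen vacuoles. Of the 4 GBP genes on chromosome 3, Gbp3, Gbp5 and Gbp7 were counted mainly in 52419 and 53369. Gbp3 had 401 and 27 reads in 52419 and 81 and 41 in 53369, parental and Cre, and at most 7 reads elsewhere. Gbp7 had 205 and 26 reads in 52419 and 90 and 31 in 53369. Gbp2, which passed the filter, had 21.4 CPM before and 2.54 after Cre in 52419 and 4.67 and 2.14 in 53369, but 1.81 and 4.40 in 53371. The log2 change of Gbp2 was -0.70 (95% confidence interval -1.61 to 0.20, limma adjusted p = 0.434). Gbp5 had 24 reads in all.

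The IRG group differed within itself. Irgm1, a regulatory GTPase that guards the cell's own membranes, measured 37.5, 55.4 and 84.1 CPM before Cre and 17.5, 58.3 and 91.1 after it. It was lower in 52419 (65.2 to 17.5 CPM) and 53371 (74.0 to 48.1) and higher in the other 4 lines. Its estimate was -0.13 (limma adjusted p = 0.853) and 0.21 without line 52419. Irgm2, a regulator of the same kind, measured 3.47, 9.74 and 21.9 CPM before Cre and 2.00, 5.15 and 8.78 after it, and was lower in 6 of 6 lines with at least 26 reads in every library. The log2 change of Irgm2 was -0.98 (SE 0.37, limma adjusted p = 0.291), from -3.17 in 52419 to -0.046 in 52205. Igtp, the neighbour of Irgm2 on chromosome 11, had 14.9 CPM before and 0.922 after Cre in 52419 and was at -0.90 (adjusted p = 0.339 by limma). Ifi47 had 8.32 CPM before and 1.84 after Cre in 52419 and 15.5 and 12 in 53369. Tgtp1, which has a close copy in the genome and is uncertain for that reason, had 61 and 4 reads in 52419 and 29 and 5 in 53369. It was lower in all 6 lines, and Iigp1 had 42 reads in all.

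Of the remaining interferon-induced proteins, Ifi44 was read almost only in the parental libraries of 52419 and 53369. It had 325 reads in parental 52419 and 3 after Cre, 110 and 7 in 53369, and 0 to 3 in each of the other 8 libraries. When edgeR was run on genes with at least 10 reads in at least 2 libraries, a setting chosen after seeing the data, Ifi44 was the single call among 42 members (adjusted p = 0.0356), where 0.0621% of all genes were called lower. Under that test 24 of the 42 were lower at an unadjusted p under 0.05, against 7.99% of all genes. The filter itself favoured lower values, since Ifi44, Mx2, Tgtp1 and Trim30a, 4 of the 16 members it added, reached 10 reads in parental libraries alone. The call and the count are therefore descriptions and support nothing further. Xaf1, an antagonist of the apoptosis inhibitor XIAP, had 38.4 CPM before and 1.84 after Cre in 52419 and 3.67 and 0.357 in 53369. Xaf1 was lower in 6 of 6 lines, barely so in 53371 (1.02 and 1.01 CPM), with a log2 change of -1.42 (SE 0.47, limma adjusted p = 0.257). Ifi27, a mitochondrial and nuclear membrane protein, had 43.3 CPM before and 3.92 after Cre in 52419, 33.6 and 10.0 in 53369 and 10.8 and 4.12 in 52205, and was higher only in 53105 (7.96 to 11.5). The log2 change of Ifi27 was -1.32 (SE 0.38, limma adjusted p = 0.230). Its span lies inside that of Ifi27l2a on chromosome 12, which had 35 reads in all, so shared reads cannot be assigned.

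Ifi35 was measured in every line, at 12.5, 23 and 31.4 CPM before Cre and 9.67, 17.7 and 21.5 after it. Its log2 change was -0.38 (SE 0.12, limma adjusted p = 0.257), lower in 5 of 6 lines. Lgals3bp, a secreted glycoprotein that binds galectins, was at 173 to 260 CPM in the parental libraries of 52205, 52424, 53105 and 53371 and at 39.1 in 53369 and 25.7 in 52419. Its Cre library stood at 2.61 CPM in 52419, while in 52424 it was higher than the parental one (309 against 173). The estimate was -0.55 (95% confidence interval -1.44 to 0.34), and 0.032 without lines 52419 and 53369. Isg20, Oasl1 and Lgals3bp were the 3 members past the filter whose 2 lowest parental libraries were 52419 and 53369 (11.5%, against 19.1% of all genes). Phf11d had 22 reads in all.

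The 23 members below the filter carried 8 to 884 reads each over all libraries. Their summed level was 246 CPM in parental 52419 and 12.8 after Cre, and 80.3 and 22.9 CPM in 53369. In the other 4 lines the sum was 5.29 to 22.3 CPM before and 4.31 to 11 after. In 52419 all 23 were lower after Cre, in 53369 21 were lower and 1 higher, and in 53105 12 were lower and 8 higher. Of all genes tested, which lie above the filter, 47.3%, 48.5% and 50.9% were lower in these lines. These genes passed no test across lines by limma without a filter either, where 0 of all 49 members were called and 24 were lower at an unadjusted p under 0.05. The share of all genes at that threshold was not taken for the fit without a filter, so the count of 24 has no background beside it.

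**Figure D4:**
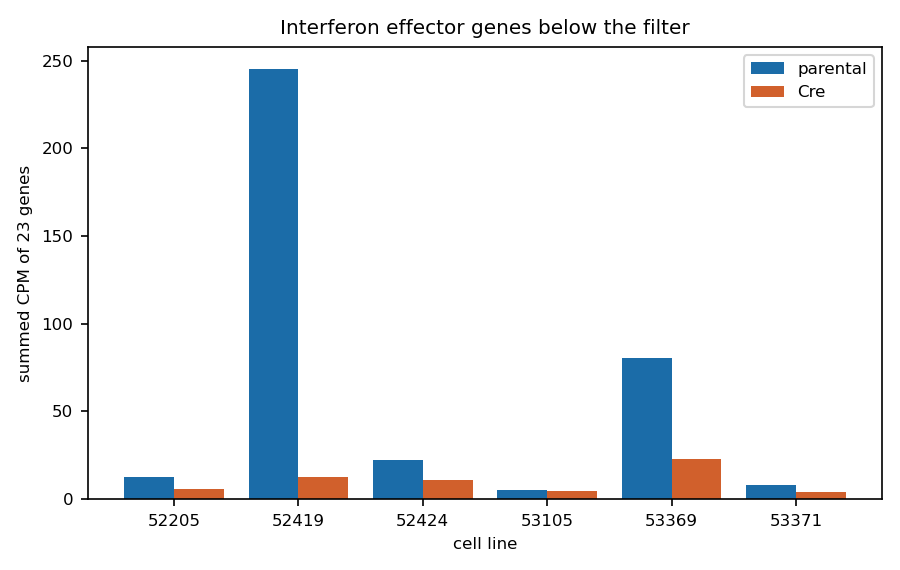
Summed CPM of the 23 members below the filter (y axis) in the parental and Cre library of each cell line (x axis), 1 library a bar. The bars of parental 52419 (246 CPM) and 53369 (80.3 CPM) stand above all others, which are at most 22.9 CPM.

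Line 52419 had the highest parental mean and the lowest Cre mean. In the Cre library of 52419 the members past the filter were the lowest of all 6 Cre libraries for 10 of 26 (38.5%), against 25.4% of all genes. Among these were Trim25 (55.1 CPM against 134 to 170), Parp9 (3.15 against 7.43 to 17.2), Bst2 (9.91 against 14.4 to 36.5) and Irgm1 (17.5 against 48.1 to 91.1). In parental cells 52419 had been the highest library for 12 of the 26, against 22.1% of all genes. The highest parental library was 52424 for 6 members (17.7% of all genes), 53369 for 5 (19.1%), 53105 for 2 (15.8%), 53371 for 1 (16.6%) and 52205 for 0 (8.77%).

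Upstream of these genes, transcripts of the interferons themselves were at or near 0. Of 20 interferon genes 5 were in the table, with 12 reads in all and at most 2 in a library. Ifnb1, interferon beta, had 3 reads in all, at 0.149 CPM in parental 52419, 0.0765 in parental 53369 and 0 in every other library. The 6 receptor subunits were measured in every line and 0 of them passed limma or DESeq2, with 1 lower at an unadjusted limma p under 0.05 (Ifnar2), against 8.18% of all genes. Ifnar1 measured 109 ± 15.8 CPM before Cre and 105 ± 25.1 after it and Ifnar2 42.3 ± 9.61 and 34.4 ± 4.69 (SD, n = 6 each), with log2 changes of -0.07 and -0.28. The interferon gamma receptor chain Ifngr1 varied more between lines than between conditions, with 23.6 CPM in parental 52419, 53.2 in 53369 and 89.0 to 335 in the others. Ifngr2 was at -0.06, Ifnlr1, the receptor chain of type III interferon, at -0.26 and Il10rb, its partner, at -0.07. The lines with the highest effector genes thus had the lowest Ifngr1 and Ifnlr1 (2.30 and 4.59 CPM).

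The 6 transducers all had an estimate below 0, with 0 called by limma, 1 called lower by DESeq2 (Irf9, adjusted p = 0.0299) and 3 lower at an unadjusted limma p under 0.05 (Jak2, Stat2 and Irf9). For this and the other pathway lists the share of all genes is the one given above, 8.18% lower at that threshold and 1.63% by DESeq2. Tyk2 was at -0.05, Jak2 at -0.26 and Stat2 at -0.58. Irf9, the DNA-binding subunit of the type I complex, followed the effector genes most closely, with 67.0 CPM in parental 52419, 25.6 in parental 53369, 10.3 to 17.2 in the other parental libraries and 7.35 to 11 in all Cre libraries. Irf9 was lower in 6 of 6 lines (log2 change -1.08, SE 0.31, limma adjusted p = 0.232). Of 5 interferon regulatory factors tested, limma called 0, with 3 lower at that threshold (Irf1, Irf7 and Irf8). DESeq2 called Irf7 and Irf8 lower, with adjusted p = 0.0278 and 0.0108. Irf7, which amplifies type I interferon responses, had 44.2 CPM before and 1.08 after Cre in 52419 and was lower in 6 of 6 lines (-1.64, SE 0.51, limma adjusted p = 0.253), and Irf1, which interferon gamma induces, was at -0.21. Among 9 RNA and DNA sensors 2 were lower at that threshold (Dhx58 and Sting1), and 0 were called by limma or DESeq2. Of 5 feedback regulators 1 was lower at it (Socs3), which limma did not call and DESeq2 did (adjusted p = 0.00418). Over the 12 libraries the non-member genes whose log2 values correlated best with the mean of the 26 members were Irf9 (Pearson r = 0.84), Dhx58 (0.82), Mamstr (0.82), Rgmb (0.81) and Azin2 (0.79). These values describe 12 points of which 2 each share a line, and they come from a search through all genes tested.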

How the data were processed

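Poly(A)-selected RNA of 12 cultures was sequenced, and the protocol in the labels names no strand-marking step. FastQC 0.11.9, featureCounts, edgeR, GRCm38 and mm10 appear in the submitters' processing notes. No source used here gives the aligner. The deposited signal is a read count per gene divided by a scaled library size (CPM). Dividing by the smallest step of each library gave whole reads for 100% of values (tolerance 0.01). The authors' second table holds deposited log2 values for 10903 genes, 18 members among them, and was used as an alternative. Entrez identifiers were matched to RefSeq symbols for 19448 of 20432 genes.

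Values were fitted as log2(CPM + 0.5), a scale that understates changes of low genes, with limma-trend 3.58.1 in R 4.3.3, cell line as block, 2-sided, over 12734 genes, with Benjamini-Hochberg adjustment and a threshold of 0.05. The series design calls the libraries of a line an isogenic pair, and the deviations of same-line libraries from their group means correlated at 0.73 to 0.95. Each line and condition has 1 library, so p-values weigh the mean change against how much that change varied between lines. The labels do not say whether the lines came from separate mice. edgeR 4.0.16 and DESeq2 1.42.0 were run on the recovered reads. The limma fit was tested on simulated data in which the lines did not differ and each change was the same in every line. That test therefore does not cover changes that are large in some lines only. Other pseudocounts, filters, scalings, library weights, an unpaired fit and each line left out were the alternatives.

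The members and lists were chosen with earlier results of these data known. Values are given for the member with the highest mean CPM of each subgroup, the 8 tested members with the smallest p, and members that moved one way in all lines with at least 10 reads in each; others named were chosen after their values were seen. Results of some pathway genes are not reported here, while counts include them. Figures were drawn with matplotlib.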

Additional observations from a re-analysis of the deposited data

Results flagged for a closer look

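In 30 sets of 6 values (the list means, the changes of 11 subgroups and those of 16 members), 4 had a lowest or highest line that stood far from its neighbour relative to the whole range. Chance flags about 1 in 20 such sets when they are independent. These sets share the same 6 lines and many genes, so 4 of 30 cannot be read against that rate. The mean level over 49 members in the Cre libraries was 2.06 in line 53369, with 1.59 the next highest. The mean change of the IRG genes was -2.34 in line 52419, with -0.82 the next lowest. The change of Trim25 was -1.18 in line 52419, with -0.25 the next, and that of Lgals3bp was -3.07 in the same line, with -0.45 the next.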

How the results depend on the processing

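Of 281 values of 16 single members under the alternatives, 272 kept their direction and their side of the threshold, 6 newly passed it and 3 changed sign. Irgm1 was at -0.28 to 0.21 with 1 line left out (0.21 without line 52419) and at 0.24 without lines 52419 and 53369, where Lgals3bp was at 0.032. The count of members called lower was 0 in limma under all other settings and in edgeR, 1 with library weights (Ifitm3) and 5 with DESeq2, and 1 (Ifi44) in edgeR on genes with at least 10 reads in 2 libraries. The count at an unadjusted p under 0.05, 11 of 26, was 24 of 49 with no filter, 7 of 16 with 1 CPM in all 12 libraries, 18 with library weights, 24 of 42 in the edgeR run on low genes, 4 without lines 52419 and 53369, and 6 to 13 with 1 line left out. Without the replicate block it was 2. The share of all genes at this threshold was taken only for the main fit (8.18%) and the edgeR run on low genes (7.99%). The counts under the other settings, and the call with library weights, therefore have no background beside them. The cause of the differences between these counts was not tested. The median ranged from -0.78 to -0.29 with 1 line left out. The run without both lines and the edgeR run on low genes were chosen after seeing the data. The latter's filter favoured members high in parental libraries. Counting error limits members with few reads in both libraries of a line, where 0 reads allow up to 3.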
